A study of Mus musculus with 24 samples.

Results

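The genes described here are 7 transcription factors of lymphoid and myeloid cells, ETS1, SPI1, IKZF1, PAX5, POU2F2, BCL11A and TLX1. They were chosen by name, with earlier results of these data known. All 7 were found among the 7493 genes of the deposited table, and the values of each were taken from all 24 libraries. Each of 8 tissues gave 3 libraries: spleen, lung, liver, kidney, heart, aorta, brain and stomach. The mice carried a SENCR-BAC transgene, a bacterial artificial chromosome with the human locus of the long non-coding RNA SENCR. All groups share this transgene and no animals without it are named. The transgene is named in the sample titles, whereas all 24 library names begin with SR-KI, an abbreviation not explained there. Strain, age and sex were not known from the labels. Nothing says which libraries came from the same animal, so p-values measure the spread between these libraries, which may in part be technical.

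Blood cell identity is set by a small group of DNA-binding proteins that switch lineage genes on or off. SPI1 (PU.1) and ETS1 belong to the ETS family, which binds DNA around a GGAA core. SPI1 drives macrophage, granulocyte and early B cell development, and ETS1 acts in T cells, B cells, natural killer cells and endothelium. IKZF1 (Ikaros) is a zinc finger factor of early lymphoid cells, PAX5 fixes B cell identity, and POU2F2 (OCT2) is a B cell factor that binds the octamer motif. BCL11A is a zinc finger repressor needed for B cells and for silencing fetal globin, and it is also a factor of cortical neurons. TLX1 (HOX11) is a homeobox factor without which the spleen does not form. The spleen is a lymphoid organ, whereas the other tissues hold blood cells as residents or in their vessels.

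Values were FPKM, a read count scaled to the gene's length and the library's assigned reads, after alignment of the mouse reads to a human genome. A mouse gene is counted only through the stretches it shares with the human gene, so levels are compared between tissues within a gene and not between genes. The libraries held 193900 to 642307 assigned reads, as worked out from the smallest steps between FPKM values, with liver lowest and brain highest. Libraries of 1 tissue correlated at r = 0.949 to 0.973 across genes. Depth per member ran from 47 reads of TLX1 over all 24 libraries to 5534 of BCL11A.

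The first comparison asked where these factors are found, taking each tissue minus the mean over the 7 remaining ones. A gene was called where limma's adjusted p was under 0.05 and the difference was at least 1 on the log2(FPKM + 1) scale, which understates the change of low genes. All 7 genes were called higher in spleen, with differences from 3.39 for SPI1 to 5.15 for PAX5, against 11.5% of the 4260 genes tested. Since the genes were chosen with earlier results of these data known, this count is a description and not independent evidence. The median difference of the 7 was 4.21, beside -0.14 over all genes tested. TLX1 met the filter on low values (at least 1 FPKM in at least 3 libraries) only through its spleen libraries, so its call follows from the filter, and the 6 others met it without spleen. In bulk tissue, fewer cells of a type and less RNA per cell cannot be told apart.

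**Figure D1:**
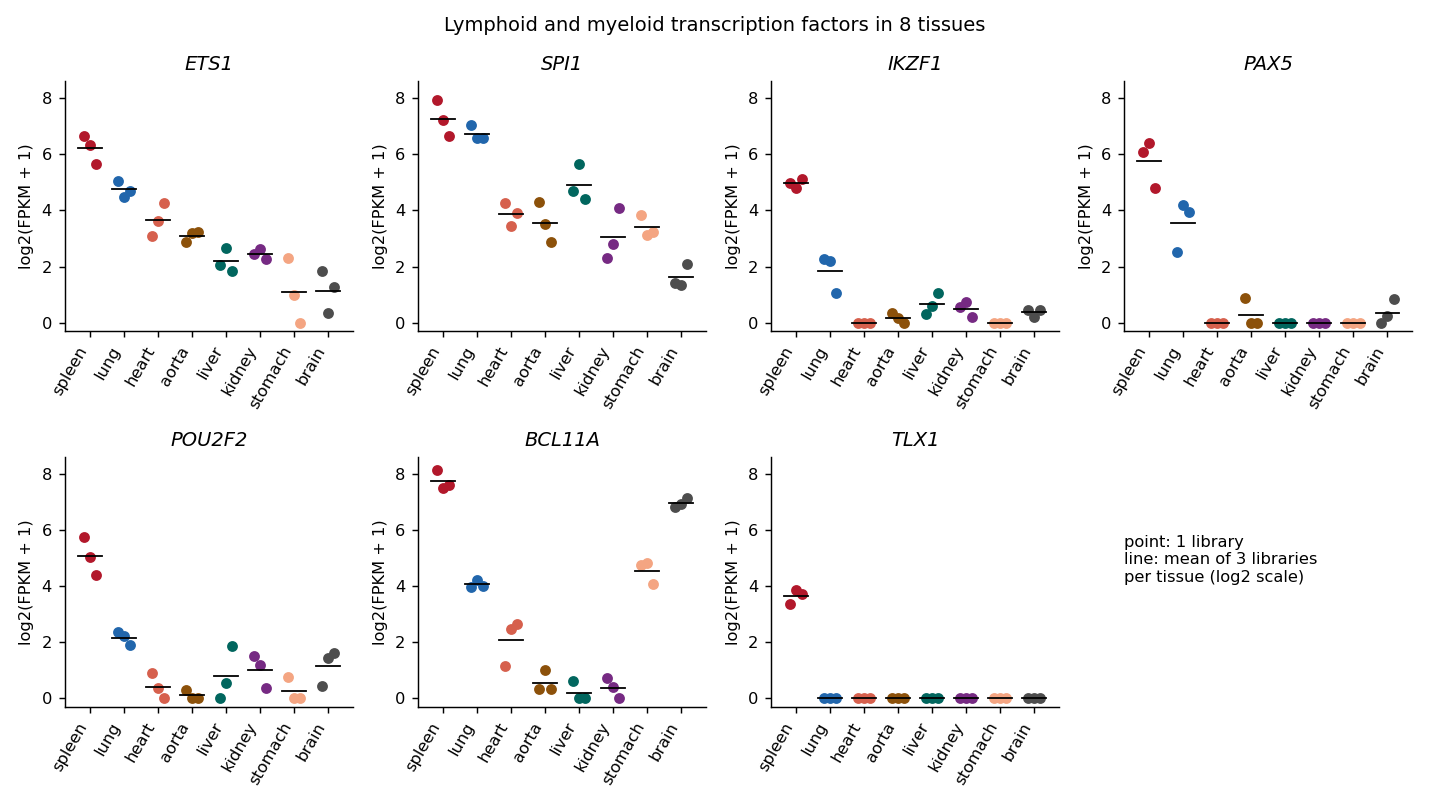
Each panel shows 1 gene, with tissues on the x axis and log2(FPKM + 1) on the y axis; points are libraries and lines are means of 3 libraries. Spleen is the highest tissue by mean in every panel, lung is second except for BCL11A, where brain is second, and TLX1, which was listed at 0 outside spleen.

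SPI1, the myeloid and B cell ETS factor, was the most widely detected of the 7, with reads in all 24 libraries. Its spleen libraries stood at 242, 149 and 99.0 FPKM (replicates 1 to 3) and its lung libraries at 131, 93.2 and 94.0. The ranges overlap, since spleen replicate 3 lay below lung replicate 1. Spleen exceeded the mean of the other tissues by 3.39 ± 0.34 (standard error; limma adjusted p = 1.47e-07) and lung by 2.77 ± 0.34 (adjusted p = 4.02e-06). Spleen and lung were not separated (difference 0.54, 95% confidence interval -0.41 to 1.49, limma adjusted p = 0.471), an interval that allows a spleen excess of up to 1.49 as well as none. Leaving out spleen replicate 1 lowered this difference to 0.21.

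Liver came next for SPI1, at 24.8, 49.7 and 20.0 FPKM on 16, 33 and 12 reads. All 3 liver libraries lay above every library of heart, aorta, stomach, kidney and brain, whose highest value was 18.7 in an aorta library. Lung exceeded liver by 1.81 (limma adjusted p = 0.00309; 22% of all genes tested were called in that direction). Heart (14.0 ± 4.15 FPKM, SD, n = 3), aorta (11.8 ± 6.33), stomach (9.81 ± 3.01) and kidney (8.59 ± 6.36) formed a group whose neighbours in the order did not differ, and liver did not pass the test against heart (limma adjusted p = 0.0842). Brain was lowest at 2.15 ± 0.973 FPKM, below kidney by 1.45 (limma adjusted p = 0.0127; background 14.5%). That last call ended without kidney replicate 3 (0.94, limma adjusted p = 0.107), without brain replicate 2 (1.31, 0.0520), with a pseudocount of 5 (0.84, 0.0625) and with voom on the recovered reads (1.77, 0.120).

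ETS1, the lymphocyte and endothelial member of the same family, was graded over more tissues. Spleen libraries held 100.2, 79.2 and 48.6 FPKM, lung 32.2, 21.3 and 25.0, and heart 7.41, 11.4 and 18.3. These 3 tissues did not overlap, and aorta (6.36, 8.05 and 8.36 FPKM) overlapped the lower end of heart. Kidney was at 4.47 ± 0.673 FPKM (SD, n = 3), liver at 3.69 ± 1.48, stomach at 1.65 ± 2.05 and brain at 1.40 ± 1.15. The stomach and brain values rested on 9 and 15 reads. Spleen was higher than the other tissues by 3.58 ± 0.36 (standard error; limma adjusted p = 1.25e-07) and lung by 1.91 ± 0.36 (adjusted p = 0.000369). In the order of means, only the step from spleen to lung was called, at 1.46 (limma adjusted p = 0.0274). This call missed the threshold without lung replicate 2 (limma adjusted p = 0.0960) or 3 (0.0697), without spleen replicate 1 (0.115) or 2 (0.0728), with a pseudocount of 0.1 (0.277) and under TPM scaling (0.172). The step from lung to heart was 1.08 (limma adjusted p = 0.0817). It passed without heart replicate 3 (1.39, 0.0479), stomach replicate 1 (1.08, 0.0387) or stomach replicate 3 (1.08, 0.0454).

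Endothelial cells also express ETS1, and 7 of 15 listed endothelial markers were in the table. Their summed level was 25.8 to 40.6 FPKM in the lung libraries, 5.39 to 10.7 in aorta, 3.64 to 6.49 in kidney and 1.98 to 5.09 in heart. It was 0 in all 3 spleen libraries, where KDR, TEK, ENG, ESAM, CLDN5, SOX18 and ERG were all at 0 while ETS1 was at its highest. Several of these markers were hardly read in any tissue, and 4 of the 7 passed the filter. KDR had 7 reads and SOX18 had 1, all in lung, and ESAM had 1, in heart. Their zeros in spleen therefore do not show that endothelium was absent there. TEK, the angiopoietin receptor, was at 17.2 ± 4.07 FPKM in lung (SD, n = 3). In lung the marker sum and ETS1 were both high, and the part of endothelium in the lung and spleen levels was not tested.

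IKZF1, the lymphoid zinc finger factor, was sharply concentrated in spleen. Its spleen libraries held 30.1, 26.7 and 34.0 FPKM on 296, 193 and 388 reads, the smallest spread of the 7 genes in spleen. Lung held 3.81, 3.54 and 1.10 FPKM on 33, 33 and 10 reads. No library of another tissue exceeded the lowest lung value, and heart and stomach had no read. Spleen lay 4.45 ± 0.21 above the other tissues (standard error; limma adjusted p = 3.34e-12) and 3.12 above lung (limma adjusted p = 5.50e-08). The step from lung to liver was 1.18 (limma adjusted p = 0.00201) and rested on a narrow gap, since liver replicate 3 and lung replicate 3 both read 1.10 FPKM. It was not called without lung replicate 1 (0.97, limma adjusted p = 0.0155), with a pseudocount of 5 (0.46) or under quantile normalization (0.22, adjusted p = 0.648). By means, the spleen level was 10.7-fold that of lung. With a floor of 3 reads over the 3 libraries of a tissue, IKZF1 was at least 206-fold higher in spleen than in heart and at least 173-fold higher than in stomach.

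PAX5, the B cell identity factor, was read almost only in spleen and lung. Spleen libraries held 66.5, 82.7 and 26.8 FPKM, and lung libraries 4.73, 17.4 and 14.3, on 19, 75 and 60 reads. Outside these tissues 8 reads were seen in all, 3 in aorta replicate 1, 1 in brain replicate 2 and 4 in brain replicate 3. Heart, liver, kidney and stomach had none. With the same floor, PAX5 was at least 98.1-fold higher in spleen than in liver and at least 169-fold higher than in heart. Spleen exceeded the mean of the others by 5.15 ± 0.31 (standard error; limma adjusted p = 9.30e-11), lung by 2.64 ± 0.31 (adjusted p = 2.01e-06), and spleen exceeded lung by 2.20 (limma adjusted p = 0.000326). Lung in turn exceeded brain by 3.20 (limma adjusted p = 1.31e-06; background 16.6%).

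POU2F2, the octamer-binding B cell factor, followed with 52.6, 31.6 and 20.0 FPKM in spleen and 4.17, 3.67 and 2.73 in lung. All lung libraries lay above those of the 6 other tissues, but narrowly, because liver replicate 3 reached 2.61 FPKM on 5 reads. The spleen difference was 4.21 ± 0.35 (standard error; limma adjusted p = 9.48e-09) and spleen exceeded lung by 2.89 (limma adjusted p = 6.46e-05). Lung did not pass against the mean of the other 7 (0.91, limma adjusted p = 0.0535) or against brain, its neighbour in the order (1.00, adjusted p = 0.0863; 1.30, adjusted p = 0.0340 under quantile normalization). The rest ran from brain (1.38 ± 0.903 FPKM, SD, n = 3) down to aorta (0.0813 ± 0.141), on 25 reads or fewer per tissue, with no step between neighbours called.

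The highest correlations between the 7 genes were among IKZF1, POU2F2 and PAX5. Over the 8 tissue means on the log2(FPKM + 1) scale, IKZF1 correlated with POU2F2 at r = 0.988, IKZF1 with PAX5 at 0.957 and PAX5 with POU2F2 at 0.947. The points share their libraries and scaling, and 6 of 8 tissues sit near 0. The promoters of these 3 genes are shown as the 250 bases before each RefSeq start in the mouse build GRCm38.p6. The spleen call was shared by all 7 genes and does not set these 3 apart. Capitals mark the ETS core GGAA, or TTCC where it is on the other strand. RefSeq windows were matched for 5 of the 7 genes, with 6 starts.
Ikzf1 first start (chr11:11685675-11685924, + strand): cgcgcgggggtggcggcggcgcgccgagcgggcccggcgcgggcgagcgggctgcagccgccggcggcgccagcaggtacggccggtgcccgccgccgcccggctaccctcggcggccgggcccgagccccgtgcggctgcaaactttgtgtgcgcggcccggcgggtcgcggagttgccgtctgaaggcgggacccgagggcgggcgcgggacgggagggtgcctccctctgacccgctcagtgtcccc
Ikzf1 second start (chr11:11689927-11690176, + strand): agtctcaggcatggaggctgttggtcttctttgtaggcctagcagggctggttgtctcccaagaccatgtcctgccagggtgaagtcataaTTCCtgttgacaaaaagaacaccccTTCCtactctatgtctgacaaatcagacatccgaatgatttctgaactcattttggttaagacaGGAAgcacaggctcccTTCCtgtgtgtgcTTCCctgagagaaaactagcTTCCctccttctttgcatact
Pou2f2 (chr7:25132461-25132710, - strand): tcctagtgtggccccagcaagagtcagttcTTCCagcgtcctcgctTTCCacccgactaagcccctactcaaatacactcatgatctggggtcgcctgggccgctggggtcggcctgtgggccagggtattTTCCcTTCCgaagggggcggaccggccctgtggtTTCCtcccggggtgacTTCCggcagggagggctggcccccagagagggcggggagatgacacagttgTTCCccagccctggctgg
Pax5 (chr4:44710695-44710944, - strand): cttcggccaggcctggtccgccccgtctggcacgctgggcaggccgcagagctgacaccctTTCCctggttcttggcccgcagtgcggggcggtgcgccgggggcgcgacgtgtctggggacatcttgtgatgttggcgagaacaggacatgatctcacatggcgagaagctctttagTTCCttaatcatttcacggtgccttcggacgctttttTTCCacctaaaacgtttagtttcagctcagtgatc

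The ETS core occurred 7 times before the Pou2f2 start, 6 times before the second Ikzf1 start and 3 times before Pax5. It did not occur before the first Ikzf1 start, a window of 82% G and C. The Bcl11a and Tlx1 windows held 4 and 1. The bases just after the start were looked for in the gene's annotated transcripts (GENCODE). They were found for Pou2f2, Bcl11a, Tlx1 and the first Ikzf1 start, but not for Pax5 or the second Ikzf1 start. Among 32841 mouse windows of the same length, 93.5% held the core at least once, with a median of 3. The octamer ATTTGCAT and the longer SPI1 motif GAGGAAGT, which contains the core, were in none of the 6 windows, and in 1.60% and 2.44% of all windows. The IKZF1 motif TGGGAA, which contains the core, was in the Bcl11a window alone and in 21.6% of all windows. Both strands were searched throughout, and a match describes letters, not a bound site.

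BCL11A differed from the other 6 in its order of tissues. Spleen libraries held 281, 180.6 and 192 FPKM, and brain libraries 110.4, 119.7 and 140.1, so that the tissues did not overlap. The spleen to brain step was 0.79 (limma adjusted p = 0.0670), short of the call. Stomach followed at 25.8, 27.0 and 15.8 FPKM and lung at 14.5, 17.6 and 15.0, which overlapped (0.48, limma adjusted p = 0.369). Heart was lower at 1.23, 4.56 and 5.31 FPKM, and aorta (6 reads), kidney (3) and liver (1) were close to 0. The steps from brain to stomach (2.41, limma adjusted p = 6.18e-06; background 23.5%), from lung to heart (1.96, 0.000143; background 23.8%) and from heart to aorta (1.53, 0.00180; background 6.5%) were called. The heart to aorta call ended with a pseudocount of 5 (0.63, limma adjusted p = 0.0229) and with voom on recovered reads (2.54, 0.0534). Against the mean of the other 7 tissues, spleen was higher by 5.06 ± 0.26 (standard error; limma adjusted p = 1.37e-11), brain by 4.15 ± 0.26 (adjusted p = 1.94e-11; background 23.9%) and stomach by 1.40 ± 0.26 (adjusted p = 0.000421; background 7.65%).

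All 12 listed neuron markers were in the table and all 12 had reads in brain, where their summed level was 6600 to 7877 FPKM. In spleen the sum was 0.268 to 2.14 FPKM, with 9 of the 12 at 0, among them SNAP25, GRIN1 and NEUROD6, while BCL11A was highest there. In stomach the sum was 26.4 to 39.1 FPKM with 7 markers above 0, and in aorta, where BCL11A was at 0.515 ± 0.435 FPKM (SD, n = 3), it was 0.617 to 48.7. The part of neurons in the stomach level was not tested.

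TLX1, the homeobox factor of spleen formation, was read in the 3 spleen libraries only. It stood at 9.21, 13.5 and 12.2 FPKM on 13, 14 and 20 reads, and the exact 95% Poisson intervals of the 3 overlapped (4.90 to 15.7, 7.37 to 22.6 and 7.45 to 18.8 FPKM; counting error only). The 21 other libraries had no read. With the floor of 3 reads over a tissue's libraries, spleen was at least 18.8-fold higher than brain, the most deeply read tissue, and at least 6.38-fold higher than liver, the shallowest. Lower levels outside spleen were not detectable at this depth. Of 10 other factors of spleen or gut mesenchyme, 7 were in the table and all 7 were tested. WT1 was called higher in spleen (1.06, limma adjusted p = 0.0190; 1.96 ± 0.450 FPKM, SD, n = 3; 11 reads; background 11.5%). Its mean was higher in kidney (2.51 ± 2.19 FPKM, 9 reads) and was 1.35 ± 0.641 in lung, so spleen was not its highest tissue. TLX3, TCF21, NR2F2, BARX1 and PITX1 were not called, and the median difference of the 7 was -0.61. TLX3, the relative of TLX1, had reads in brain alone (8.89 ± 5.02 FPKM).

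The spleen libraries themselves differed by more than counting error for several genes. For SPI1, the exact 95% Poisson interval was 218 to 267 FPKM in replicate 1 and 85.3 to 114 in replicate 3. For PAX5 it was 73.2 to 93.0 in replicate 2 and 22.6 to 31.6 in replicate 3. The highest library was replicate 1 for ETS1, SPI1, POU2F2 and BCL11A, replicate 2 for PAX5 and TLX1, and replicate 3 for IKZF1. The highest spleen value was 3.08 times the lowest for PAX5, 2.63 for POU2F2, 2.44 for SPI1, 2.06 for ETS1, 1.55 for BCL11A, 1.46 for TLX1 and 1.27 for IKZF1. Even so, all 3 spleen libraries lay above the other 21 for 6 of the 7 genes, SPI1 being the exception, against 4.39% of all genes tested. TLX1 is among the 6 by the filter, as above.

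Spleen and lung were then compared directly, since lung was the next tissue for 5 of the genes. Of the 7, 6 were called higher in spleen, against 4.95% of all genes tested in that direction, and SPI1 was not called. The call of TLX1 again follows from the filter, which it met through spleen alone. The lung mean was 65.0% of the spleen mean for SPI1 and 34.4% for ETS1. It was 20.7% for PAX5, 10.1% for POU2F2, 9.31% for IKZF1 and 7.21% for BCL11A, and TLX1 had no lung read. The 2 ETS genes thus kept more of their spleen level in lung than the 5 others did, as means of 3 libraries.

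**Figure D2:**
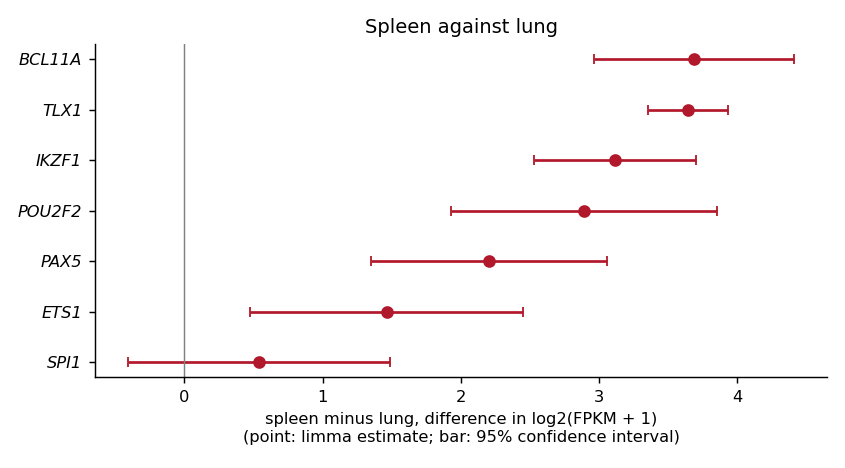
Spleen minus lung difference of each gene on the log2(FPKM + 1) scale, with points for the limma estimate and bars for the 95% confidence interval. The interval of SPI1 (-0.41 to 1.49) includes 0, that of ETS1 begins at 0.47, and those of the other 5 begin at 1.35 or higher.

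Ratios taken within a library do not depend on its depth scaling beyond the added 1, and show how the genes shift against each other. The log2 ratio of SPI1 to IKZF1 was 4.88 ± 0.568 in lung and 2.31 ± 0.733 in spleen (SD, n = 3), and the libraries did not overlap (4.38 to 5.50 against 1.52 to 2.96). The ratio of SPI1 to ETS1 was 1.98 ± 0.106 in lung, 1.06 ± 0.185 in spleen and 2.73 ± 0.229 in liver, with no overlap between the 3 tissues. SPI1 to PAX5 was 3.17 ± 1.18 in lung and 1.51 ± 0.581 in spleen, again without overlap. These ratios are given as a description and were not tested. Elsewhere IKZF1 and PAX5 had few reads, and the ratios of SPI1 to them mostly follow SPI1 itself. ETS1 had 80 reads in heart and 58 in aorta, beside 46 of SPI1 in each, so SPI1 to ETS1 depends on both genes there.

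**Figure D3:**
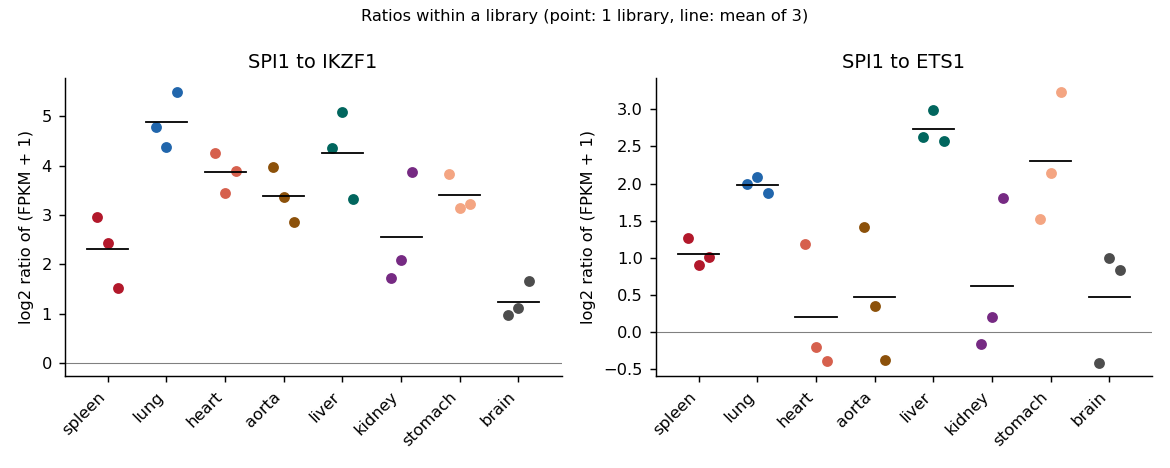
Log2 ratio of (FPKM + 1) of SPI1 to IKZF1 and of SPI1 to ETS1 by tissue, with points for libraries and lines for means of 3. Lung lies above spleen in both panels, and liver, with 3 to 7 ETS1 reads per library, is highest by mean in the SPI1 to ETS1 panel.

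A mean that includes spleen lowers every other tissue for these genes, so each remaining tissue was also set against the 6 others with spleen left out, a choice made after seeing the data. Lung was then higher for 6 of 7 genes, against 12.9% of all genes tested and 3 of 7 with spleen in the reference (ETS1, SPI1 and PAX5; background 11.9%). The differences were 3.44 for PAX5 (limma adjusted p = 6.36e-08), 3.32 for SPI1 (4.28e-07), 2.47 for ETS1 (2.29e-05), 1.60 for BCL11A (8.99e-05), 1.56 for IKZF1 (1.14e-05) and 1.54 for POU2F2 (0.00185). For IKZF1, POU2F2 and BCL11A they fell under the minimum size with a pseudocount of 5 (0.56, 0.59 and 0.68). All 3 lung libraries lay above the 18 libraries of the other 6 tissues for 5 of the 7 genes, against 3.5% of all genes tested. BCL11A, higher in brain, and TLX1 were the exceptions.

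Single genes stood out in other tissues. BCL11A was higher in brain by 4.98 (limma adjusted p = 1.17e-12; background 24.1%) and in stomach by 2.17 (adjusted p = 3.11e-06; background 7.91%). SPI1 was higher in liver by 1.21 (limma adjusted p = 0.00697; background 9.81%). The liver call ended without liver replicate 2 (0.84, limma adjusted p = 0.0972) and with a pseudocount of 5 (0.88, 0.0118, under the minimum size). ETS1 was higher in heart by 1.21 (limma adjusted p = 0.0103; background 5.94%), a call that ended without heart replicate 3 (0.90, limma adjusted p = 0.105) and with pseudocounts of 0.1 (1.64, 0.0607) and 5 (0.69, 0.00819). Lower calls were made for ETS1 in stomach (-1.78, limma adjusted p = 0.000800; background 7.11%) and brain (-1.73, 0.000411; background 10.4%) and for SPI1 in brain (-2.64, 1.56e-06). BCL11A was lower in liver (-2.90, limma adjusted p = 2.67e-08; background 18%), kidney (-2.68, 1.35e-07; background 8.97%) and aorta (-2.48, 3.97e-07; background 9.44%). IKZF1, PAX5 and POU2F2 were called in neither direction in any tissue other than lung. A lower call was out of reach for these genes, because the mean of the 6 other tissues lay under the minimum size of 1. That mean was at most 0.59 for IKZF1, 0.70 for PAX5 and 0.97 for POU2F2 on the log2(FPKM + 1) scale.

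**Figure D4:**
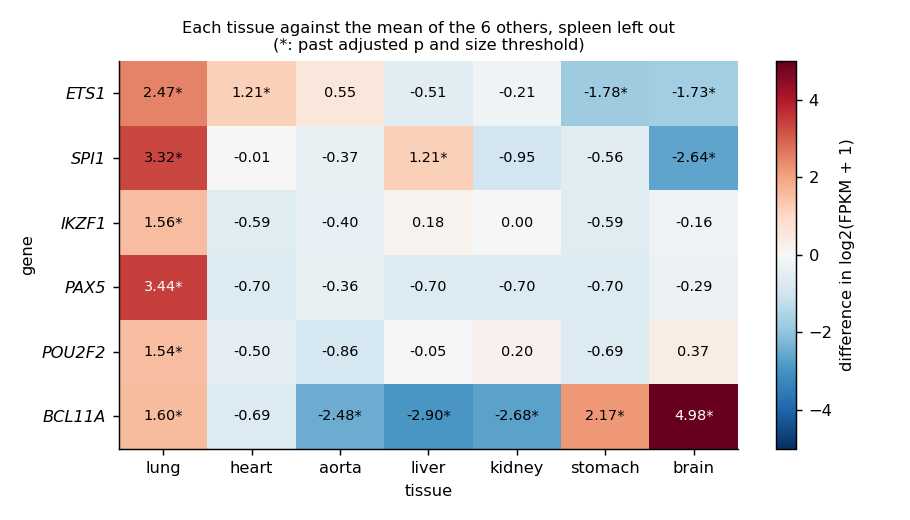
Difference of each tissue from the mean of the 6 others, spleen left out, in log2(FPKM + 1), for the 6 genes read outside spleen; red is higher, blue lower and * marks calls. The lung column is higher in all 6 rows, and BCL11A in brain (4.98) is the largest value.

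Few markers of the blood cells themselves could be analysed here. They were CD3E of 17 T cell markers, BTK and BLNK of 13 B cell markers, CSF1R and LYZ of 18 macrophage and monocyte markers, S100A8 and S100A9 of 7 neutrophil markers, and PTPN6 and CORO1A of 7 common leukocyte markers. CD3E had 1 read, in lung. BTK, a B cell kinase also found in myeloid cells, was at 20.9 ± 5.94 FPKM in spleen (SD, n = 3; 95 reads), at 5.06 ± 3.05 in lung (22 reads), and had 3 reads in heart and 1 in liver. BLNK, the other B cell marker, had 1 read in spleen, 1 in lung, 2 in aorta and 4 in stomach, so the sum of the 2 (14.9 to 26.2 FPKM in spleen libraries, 2.71 to 8.50 in lung) is almost all BTK. The 2 macrophage markers reached 1.18 FPKM at most in spleen and 0.498 in lung, and were both at 0 in liver, where SPI1 was the third highest. S100A8 and S100A9 were at 0 in spleen and lung, and S100A8 had 1 read in a liver library (12.8 FPKM). No T cell, macrophage, neutrophil or common leukocyte marker passed the filter, so their zeros do not show that these cells were absent. The part of these cells in the SPI1 levels was not tested. Of 3 red cell precursor markers analysed, HBA1 was at 0 in spleen and ANK1 had 2 reads there. HBA1 had 1 read, in aorta, so its 0 in spleen does not show that red cell precursors were absent. TFRC, the transferrin receptor of red cell precursors and other dividing cells, was at 57.6 to 221 FPKM in the spleen libraries and at 32.1 or less in every other library. The cells behind these levels were not identified.

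Other transcription factors of blood cells were taken from a list of 99, of which 66 were in the table and 51 were tested, 47 of them passing the filter without spleen. In spleen, 19 were higher, 3 lower and 29 not called, with a median difference of 0.77 beside -0.14 over all genes. In all genes tested 11.5% were higher and 13.5% lower, 488 and 576 genes, or 422 and 767 under TPM scaling. With a pseudocount of 5 the list's count fell to 9. Several of those with the highest spleen level were called. FLI1, an ETS factor whose gene neighbours ETS1, was at 696 ± 346 FPKM (SD, n = 3) and higher by 2.48 (limma adjusted p = 7.33e-05). SENCR is transcribed antisense to FLI1, so reads counted for FLI1 from the mouse gene and from the human transgene cannot be told apart here. The sample titles do not give the extent of the transgene, so whether it adds reads to ETS1 is not known. MEF2C, a factor of B cells, muscle and neurons, was at 153 ± 38.1 (1.98, adjusted p = 4.15e-08) and FOXP1 at 126 ± 33.9 (1.74, 5.49e-07). ID2 (839 ± 337 FPKM; -0.51, limma adjusted p = 0.0530) and ZEB2 (125 ± 28.6; 0.86, adjusted p = 8.51e-05, under the minimum size) were not called. KLF4 (-1.31, limma adjusted p = 0.0123) and RORA (-1.08, adjusted p = 0.00165) were among the lower genes. Named after their values were seen, the T cell factors TCF7 (19.4 ± 4.33 FPKM) and LEF1 (12.0 ± 5.91) were higher by 3.78 (limma adjusted p = 4.14e-11) and 3.30 (1.33e-09), and EBF1 (6.65 ± 3.12), a factor of B cells and of stromal cells, by 1.68 (2.53e-06). EBF1 was also higher in aorta (5.94 ± 1.15 FPKM; 1.59, limma adjusted p = 7.00e-06).

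The genes most like each factor across tissues were found among 4259 others by Pearson's r over the 8 tissue means of log2(FPKM + 1). FLI1, with the same limit on the source of its reads, was the nearest to ETS1 (r = 0.975), followed by PHF6 (0.914) and FAM120AOS (0.909). SPI1 was nearest to CSK (0.948), a kinase that restrains Src-family signalling, MTMR3 (0.924) and FAM120AOS (0.915). BACH2, a B cell repressor at 3.80 ± 0.740 FPKM in spleen (SD, n = 3), was nearest both to IKZF1 (0.992) and to POU2F2 (0.991). PAX5 was nearest to UNC13D (0.991), NCKAP1L (0.982), a blood cell actin regulator, and TCF7 (0.980). BCL11A was nearest to CYRIB (0.957), which was at 385 ± 95.1 FPKM in spleen and 213 in brain, then to RAP1GDS1 (0.949) and JAKMIP1 (0.931). TLX1 was nearest to COCH (0.997), KLHL6 (0.985) and DOCK2 (0.985). SCAND1 completed the lists of IKZF1 (0.989) and POU2F2 (0.974). Those of TLX1, like several of the others, rest on values near 0 in most tissues, and 44 genes had r of at least 0.9 with PAX5 but 7 with ETS1 and 7 with SPI1. Several were low in spleen too: CSK (1.03 ± 0.664 FPKM), SCAND1 (1.13 ± 1.00), FAM120AOS (1.34 ± 1.63), PHF6 (1.86 ± 0.407) and UNC13D (2.03 ± 1.71). By ranks, Spearman's rho over the listed genes ran from 0.520 (NCKAP1L with PAX5) to 0.976 (FLI1 with ETS1, RAP1GDS1 with BCL11A).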

How the data were processed

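RNA from 8 tissues was extracted with TRIzol and sequenced from VAHTS Universal V10 libraries, per the labels' protocols. The authors deposited FPKM values; per the submitters' processing notes the tools were fastp, HISAT2 and HTSeq and the build GRCh38.p13, which is human, and no tool version is named. Annotation and strand setting: not given in the sources used here. Reads were recovered for all 7493 genes as whole multiples of the value of 1 read (relative tolerance 1e-06), and their totals matched the depths the steps imply within 0.1%. Groups and replicate numbers came from the sample titles.

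The scale was log2(FPKM + 1), and the 4260 genes reaching 1 FPKM in 3 or more libraries were tested. The model had 1 mean per tissue and was run in limma 3.58.1 (R 4.3.3), with its trend option on and Benjamini-Hochberg adjustment over all genes within each contrast. The contrasts were each tissue against the mean of the other 7, all 28 pairs and, added after seeing the data, each tissue but spleen against the 6 others. The fit and the read recovery were tested on simulated data. Ranges for single libraries are exact 95% Poisson intervals, and 3 reads is the limit a count of 0 allows; both cover counting error only, since no molecular identifiers separate PCR copies.

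The members and lists were chosen with earlier results of these data known. Named are the 7 genes, the 3 genes nearest each by r over tissue means, and of the other blood cell factors the 6 highest in spleen and any called lower there. A few genes that this rule or the lists hold are not reported here. Alternatives were each library left out in turn, a replicate block, voom on recovered reads, quantile, median-ratio or TPM scaling, dropping mitochondrial genes, pseudocounts of 0.1 and 5, and a filter at 5 FPKM or none. Same-numbered libraries of different tissues deviated together weakly at most (r = -0.0589 to 0.128, median 0.0241, over 84 pairs, 2 above 0.1). Differently numbered libraries lay slightly lower (r = -0.108 to 0.0769, median -0.0173, over 168 pairs, 0 above 0.1). Deviations were taken from each tissue's own mean, which pushes these sets of pairs to opposite signs, so they are not independent. The small shift between them was not tested, and numbers were not taken as pairs. Promoter windows came from RefSeq on GRCm38.p6, and motifs were exact letter matches on both strands. Python 3.11.15 with numpy 2.4.6, pandas 2.3.3 and scipy 1.17.1 was used.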

Additional observations from a re-analysis of the deposited data

How the results depend on the processing

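All 7 genes were called higher in spleen under each of the 34 alternatives, which were 10 other settings and each of 24 libraries left out. With a replicate block, whose numbers share no stated animal or day, the count was again 7, 3 genes were called in lung, and no call of the 7 genes changed in spleen or lung. The count in lung was 3, but 5 with a pseudocount of 0.1, 5 under TPM scaling, 6 with voom on recovered reads and 6 against the 6 tissues other than spleen, and the cause was not tested; IKZF1 (0.89), BCL11A (0.85) and POU2F2 (0.91) lay just under the minimum size. It was 3 to 4 with a library left out. The other blood cell factors called higher in spleen numbered 19, 9 with a pseudocount of 5, and 16 to 22 with a library left out; the pseudocount shrinks low genes by construction. The lung minus spleen difference in log2 ratio moved from 2.58 to 1.66 for SPI1 to IKZF1 with a pseudocount of 5 and from 0.92 to 1.11 for SPI1 to ETS1 under quantile normalization. IKZF1 in lung against liver (1.18) was not called with a pseudocount of 5 (0.46), under quantile normalization (0.22) or without lung replicate 1 (0.97). No direction reversed among the differences recomputed. Median-ratio scaling moved the median lung difference of all genes from 0.15 to -0.02, and quantile normalization to -0.10. Depth limits the genes with few reads outside spleen and lung, where a level under 3 reads could not be seen.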

Other observations

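BCL11B, the relative of BCL11A and a T cell and neuron factor, had its 2 highest means in the same 2 tissues as BCL11A, in the other order. It was at 19.6 ± 2.97 FPKM in brain and 8.82 ± 3.18 in spleen (SD, n = 3; 305 and 110 reads), and higher in spleen than in the other tissues by 1.89 (limma adjusted p = 4.90e-06). It was named after its values were seen. LMO2, a cofactor of blood and endothelial cells chosen in the same way, was at 54.1 ± 27.7 FPKM in spleen and 31.5 ± 2.37 in lung, with a difference of 0.65 (95% confidence interval -0.68 to 1.98, limma adjusted p = 0.550). Aorta was close to lung at 28.9 ± 12.5.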
